A study of Mus musculus with 4 samples.

Results

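Ephrins and Eph receptors were followed across the m6A site lists of mouse retinal organoids at day 4, tissue that stem cells form in 3-dimensional culture. The 9 genes looked for were the ephrin ligands Efnb1, Efnb2, Efnb3 and Efna5 and the receptors Epha2, Epha4, Ephb2, Ephb3 and Ephb4. Their sites were taken by position: a listed site belonged to a gene if it lay on the strand of that gene and between the start and end that the lists give for it. For 8 of the 9 genes the lists name a gene region, and these held 1194 of 881997 distinct listed positions. Epha2 is named in none of the 4 lists and was not analysed here.

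The wild-type group was the Rx:GFP line, which carries a green fluorescent reporter of the eye field gene Rax. The other group was a Mettl3 KO in the Rx:GFP line that also carries a Dox-inducible HA-METTL3; METTL3 is the enzyme subunit that writes most m6A in mRNA. Each group had 2 libraries, named wild-type and knockout (KO) replicates 1 and 2. Both lines were grown in medium with 5% KSR and 0.1 µM AGN, the labels record the treatment as none, and addition of doxycycline is not recorded. The labels name 1 line per genotype and the same batch for all 4 libraries; whether the replicates were separate cultures is not given, so p-values measure only the spread between these libraries. The assay was GLORI, in which glyoxal and nitrite turn unmodified adenosine into a base read as G while m6A is still read as A. The level of a site is the share of its reads that still read A. A list holds only sites with at least 15 reads, at least 5 unconverted reads and a level of at least 0.1, and no listed p-value is above 0.004. These limits were read from the lists themselves. A site missing from a list may have failed any of them or another that is not stated, and the list does not say which.

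Ephrins are ligands held at the cell surface, and they signal to Eph receptor tyrosine kinases on touching cells. A-type ephrins are tethered by a lipid anchor and B-type ephrins span the membrane. B-type ephrins can also pass a signal into the cell that carries them. In the developing eye ephrin-B and EphB proteins take part in cell movement into the eye field and in dorsoventral patterning of the retina, and ephrin-A and EphA proteins in its nasotemporal patterning and in axon guidance.

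Reads with A or G summed to 15723044 and 21400899 over the listed sites of the wild type against 14170405 and 13214893 in the KO. These sums did not overlap, but they count reads at listed sites only and so do not give library depth. Gene coverage, taken as the median over 8227 genes, did overlap: wild-type libraries had 50.3 and 57.3, KO libraries 53.4 and 46.3. The wild-type lists held 227298 and 288516 sites with a median coverage of 39 and 41 reads, and the KO lists 230299 and 215850 sites with 40 and 38 reads. In the eye field marker list of 6 genes, 3 had a coverage in all libraries, and 2 of these were lower in the KO. The log2 change was -3.01 ± 0.19 for Six3 and -2.81 ± 0.16 for Lhx2 (SE, limma adjusted p 1.04e-05 for both). Pax6, the other measured eye field gene, had a log2 change of 0.12 ± 0.17 (SE, limma adjusted p 0.726). Its coverage was 2.22 and 2.23 times the median gene in the wild type against 2.61 and 2.23 in the KO, and the groups overlapped. Rax had 20 and 35 sites in the wild-type lists and none in the KO lists, and Six6 had no listed site in any library. Of 8 neural crest and dorsal neural tube markers 3 had a coverage in all libraries and 2 were higher in the KO, Wnt1 by 2.16 ± 0.21 and Msx2 by 1.22 ± 0.18 (SE; limma adjusted p 0.000285 and 0.00430). Foxd3, the other measured crest gene, had a log2 change of -0.09 ± 0.18 (SE, limma adjusted p 0.790). The summed coverage of the 3 measured eye field genes was 22.8 and 24.5 times the median gene in the wild type against 5.05 and 5.31 in the KO. Six3 alone had 16.3 and 17.6 against 1.80 and 2.45. For the 3 measured crest genes it was 1.73 and 1.37 times in the wild type against 3.19 and 3.57 times in the KO. Pluripotent markers had 2 of 6 genes measured, with Pou5f1 lower (log2 change -0.68 ± 0.17, SE; limma adjusted p 0.0464) and Nanog at -0.70 ± 0.19 (SE; adjusted p 0.0518). Midbrain and hindbrain markers had 2 of 6 measured and none past the threshold, with En1 at 0.40 ± 0.18 and Pax2 at 0.02 ± 0.20 (log2 change ± SE; limma adjusted p 0.206 and 0.974). Surface ectoderm markers had 2 of 6 measured, with Krt18 lower (-0.74 ± 0.18, SE; limma adjusted p 0.0416) and Cdh1 at 0.57 ± 0.17 (SE; adjusted p 0.0677). No mesendoderm gene of 8 was measured in all libraries, and T and Mixl1 had no listed site. These marker shifts moved with the genotype, and their part in the results for ephrins and Eph receptors was not tested. In such bulk libraries fewer cells that express a gene and less RNA per cell cannot be told apart.

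Coverage of whole genes was compared first, since a thinly covered site cannot enter a list. The lists give each site the mean coverage of its gene, a value per base and thus comparable between genes of different length, and it is printed here relative to the median gene of the same library. Of the 9 genes 7 had a single value in every library and entered limma's test over 8227 genes. Among these 7, Efnb2 and Epha4 were lower in the KO and Efnb1 was higher at a Benjamini-Hochberg adjusted p under 0.05. Over all genes tested 3.09% (254) were called lower and 2.64% (217) higher; without centring on the median gene these were 299 and 101, with the same 3 members called. In the wild type the order from high to low was Efnb2, Efnb3, Epha4, Ephb4, Ephb2, Efnb1 and Ephb3. The neighbours Epha4 and Ephb4, and Efnb1 and Ephb3, did not differ by more than the larger SD of each pair.

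Efnb2, a B-type ephrin that marks the dorsal retina and is the preferred ligand of EphB4, was the most covered member and fell the most. Its coverage was 5.84 and 6.58 times the median gene in the wild type against 1.70 and 1.87 in the KO. Both KO libraries lay far below both wild-type libraries. The log2 change was -1.79 ± 0.17 (SE; 95% interval -2.16 to -1.43; limma adjusted p 0.000213), a 3.47-fold difference. In the wild type Efnb2 stood above 96.2% of tested genes, and in the KO above 77.4%.

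Epha4, a receptor that binds both A-type and B-type ephrins, was about as covered as the median gene in the wild type and below it in the KO. Its coverage was 1.04 and 1.14 times the median gene in the wild type against 0.558 and 0.593 in the KO, and the groups did not overlap. The log2 change was -0.92 ± 0.16 (SE; 95% interval -1.28 to -0.56; limma adjusted p 0.0103). Efnb1, the X-linked B-type ephrin, moved in the opposite direction. Its coverage was 0.657 and 0.553 times the median gene in the wild type against 1.16 and 1.30 in the KO, again without overlap. The log2 change was 1.03 ± 0.17 (SE, 95% interval 0.65 to 1.41, limma adjusted p 0.00886), a 2.04-fold difference. As an alternative, each gene was given the value most frequent among its sites, including values shared across the chromosome. The calls of Epha4 and Efnb1 were then lost (limma adjusted p 0.127 and 0.130), with log2 changes of -0.94 and 1.01. The call of Efnb2 held in that fit (limma adjusted p 0.0364). With only 1 KO library in the fit, the calls of Epha4 and Efnb1 were lost although their direction held. Without KO replicate 1 the limma adjusted p was 0.0817 for Epha4 and 0.0710 for Efnb1, and without KO replicate 2 it was 0.0751 and 0.0861. The call of Efnb2 held without either, at an adjusted p of 0.0200 and 0.0199.

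The other members showed no difference past the threshold. Efnb3, a B-type ephrin of the neural midline, had 1.49 and 1.29 times the median gene in the wild type against 1.45 and 1.32 in the KO, and its libraries overlapped. The log2 change was 0.00 ± 0.17 (SE; 95% interval -0.37 to 0.37; limma adjusted p 0.999). Ephb2, a receptor of the ventral retina, had 0.900 and 0.841 against 0.622 and 0.843 times the median gene. KO replicate 2 lay between the wild-type libraries, and the 95% interval of the log2 change ran from -0.67 to 0.14 (limma adjusted p 0.423). Ephb3, a close relative of Ephb2, had 0.528 and 0.564 against 0.642 and 0.611 times the median gene. The KO values were the higher ones in both replicates, which 24.7% of all tested genes also showed (29.4% showed the reverse order), and the interval ran from -0.16 to 0.56 (limma adjusted p 0.502). Ephb4, the preferred receptor of ephrin-B2, had 1.03 and 1.02 against 0.755 and 1.08 times the median gene, with the wild-type libraries between the KO libraries and an interval from -0.61 to 0.24 (limma adjusted p 0.610).

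Efna5, an A-type ephrin known for guiding retinal axons, had no single value, because its sites carried 2 different gene values. With the more frequent of these, a reading chosen after the data were seen, its coverage was 1.47 and 1.53 times the median gene in the wild type against 1.66 and 1.94 in the KO. On the log2 scale the change was 0.26 ± 0.17 (SE; limma adjusted p 0.390). The plot of coverage by library shows these values.

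**Figure D1:**
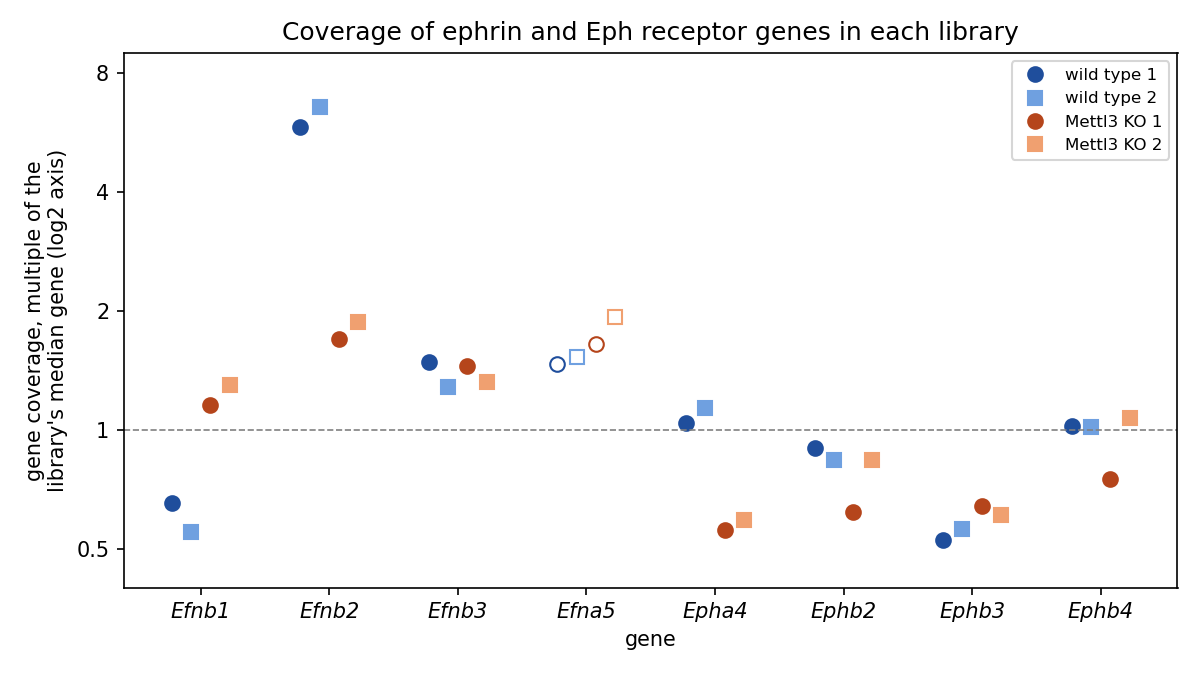
Coverage of each ephrin or Eph receptor gene relative to the median gene of the same library (vertical log2 axis), with 1 symbol per library; open symbols for Efna5 mark the more frequent of its 2 gene values. Efnb2 sits at 5.84 and 6.58 in the wild type and at 1.70 and 1.87 in the KO, Epha4 is lower and Efnb1 higher in both KO libraries, and Efnb3, Ephb2 and Ephb4 overlap between the groups.

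The rest of the family and its signalling partners were read in the same test. Of 13 further ephrin and Eph genes 5 were measured in all libraries; 1 was lower, none was higher, and the median log2 change was 0.38, against -0.02 over all genes tested. The lower one was Epha7, another receptor of A-type ephrins, at 1.01 and 1.05 times the median gene in the wild type against 0.545 and 0.657 in the KO (log2 change -0.78 ± 0.17, SE; limma adjusted p 0.0248). Of 40 signalling partners, such as the adaptors Nck1 and Nck2, the protease Adam10 and the GTPase Rhoa, 27 were measured and none passed the threshold in either direction, with a median log2 change of 0.04. At an unadjusted p under 0.05 limma marked 6 of them higher (Nck1, Nck2, Grb7, Rgs3, Abl2 and Src) and 1 lower (Rhoa); over all genes tested 11% were higher and 12.3% lower by that measure.

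The sequences upstream of the 3 members with a coverage difference are shown because the coverage test called these genes. They are the 250 bases before the annotated start in RefSeq on GRCm38.p6, 5′ to 3′ on the gene's strand, at chr8:8661243-8661492 (minus) for Efnb2, chr1:77515089-77515338 (minus) for Epha4 and chrX:99135811-99136060 (plus) for Efnb1. Capitals mark the GC box letters GGGCGG (also searched as CCGCCC, the other strand), counted without overlap.
Efnb2: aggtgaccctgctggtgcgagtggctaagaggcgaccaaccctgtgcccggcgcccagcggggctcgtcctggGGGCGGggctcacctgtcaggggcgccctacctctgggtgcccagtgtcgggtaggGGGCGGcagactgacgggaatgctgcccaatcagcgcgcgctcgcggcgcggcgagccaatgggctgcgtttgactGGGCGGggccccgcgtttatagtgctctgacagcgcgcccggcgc
Epha4: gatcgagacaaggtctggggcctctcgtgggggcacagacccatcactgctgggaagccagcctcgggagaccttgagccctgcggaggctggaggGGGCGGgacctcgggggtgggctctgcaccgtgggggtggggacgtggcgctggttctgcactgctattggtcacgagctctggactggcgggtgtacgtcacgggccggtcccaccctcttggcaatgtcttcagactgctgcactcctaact
Efnb1: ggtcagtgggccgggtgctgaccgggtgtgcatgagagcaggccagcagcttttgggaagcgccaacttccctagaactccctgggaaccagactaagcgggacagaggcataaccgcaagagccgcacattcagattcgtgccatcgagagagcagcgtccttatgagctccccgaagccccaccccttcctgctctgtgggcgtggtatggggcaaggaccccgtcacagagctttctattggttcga
The Efnb2 window held 3 GC boxes, that of Epha4 1 and that of Efnb1 none; 32.7% of 32851 RefSeq promoter windows of this length held at least 1. Among the other members with a window Efna5 and Ephb4 held 4 each, Ephb3 2, Epha2 1 and Ephb2 none. Efnb2 also held 1 match to TATAAA read on either strand, which 12.4% of windows held, and none of the 3 held TAATTA, which 4.84% held. G and C made up 72.0%, 66.0% and 60.0% of the bases of Efnb2, Epha4 and Efnb1, against a median of 52.4% over all windows. Of the 9 members 8 had a RefSeq window, Efnb3 being without one. The windows are a description of these genes and were set against no measurement.

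The number of listed sites per gene was then compared. Listed sites of the 8 members together numbered 265 and 373 in the wild type against 333 and 300 in the KO, so the ranges overlapped. For the test, edgeR's quasi-likelihood fit was run on 7075 genes; at an adjusted p under 0.05, 1.77% had fewer and 1.41% more sites in the KO. Of the 8 members 1 was called, Efna5. Its listed sites numbered 96 and 136 in the wild type against 162 and 168 in the KO, so the groups did not overlap. The log2 change was 0.70 (edgeR adjusted p 0.0112).

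The sites of Efna5 were of different kinds. Some sites carry the coverage of their gene. Others carry a value shared by sites on both strands of the chromosome, called chromosome-wide here. In Efna5, a gene of 277134 bases, 58 and 91 sites carried the chromosome-wide value in the wild type against 128 and 125 in the KO. By contrast 38 and 45 sites carried a gene value in the wild type against 34 and 43 in the KO, and here the groups overlapped. Counting only sites with a gene value, a choice made after the data were seen, the log2 change of Efna5 was -0.0015 (edgeR adjusted p 0.999). The call was also lost without wild-type replicate 1 (log2 change 0.62), wild-type replicate 2 (0.81) or KO replicate 2 (0.62), in DESeq2 (0.69) and with only sites of at least 50 reads (0.36), with adjusted p from 0.147 to 0.757. It held without KO replicate 1 (0.78; edgeR adjusted p 0.0193) and with only sites at a level of at least 0.3 (0.92; adjusted p 0.00310). The median level of the chromosome-wide sites was 0.334 and 0.350 in the wild type against 0.353 and 0.320 in the KO, and the groups overlapped. For the sites with a gene value it was 0.297 and 0.242 in the wild type against 0.164 and 0.217 in the KO, with both KO values lower.

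Efnb2, Epha4 and Efnb1 had site numbers that ran with their coverage, without passing the threshold. In Efnb2 67 and 65 sites were listed in the wild type against 32 and 33 in the KO (log2 change -0.84; edgeR adjusted p 0.0642). Epha4 had 33 and 55 against 22 and 16 sites (-1.01; edgeR adjusted p 0.0761), and Efnb1 had 12 and 8 against 22 and 15 (1.05; edgeR adjusted p 0.291). In each of these 3 genes the groups did not overlap; over all genes tested both KO libraries were below both wild-type libraries in 27.5% and above them in 11.5%. In Efnb2 18 and 26 of the wild-type sites carried the chromosome-wide value, against 1 and 2 in the KO. With gene-value sites alone, 49 and 39 against 31 and 31, its log2 change was -0.41 (edgeR adjusted p 0.624). Efnb3 had 10 and 29 against 15 and 19 sites, Ephb2 20 and 32 against 25 and 14, Ephb3 15 and 17 against 25 and 15, and Ephb4 12 and 31 against 30 and 20. In these 4 genes no shift was visible beyond the spread, with edgeR adjusted p from 0.679 to 0.997.

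**Figure D2:**
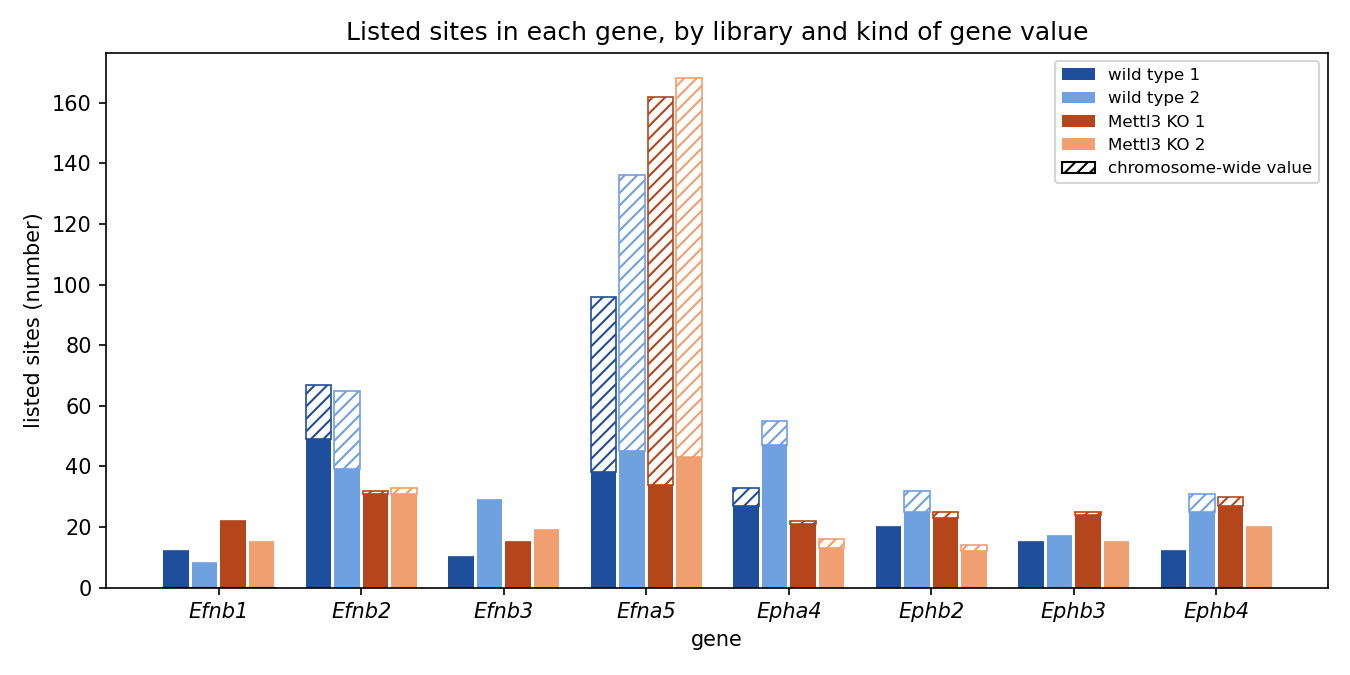
Number of listed sites in each gene and library; solid bars are sites with a gene value and hatched bars are sites with a chromosome-wide value. The rise of Efna5 from 96 and 136 to 162 and 168 sites lies in the hatched part, and Efnb2 drops from 67 and 65 to 32 and 33.

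Most positions did not recur. Of the 1194 positions 94.2% were in 1 list only, against 91.9% over the whole series. Both wild-type lists held 32 of them (2.68%, against 3.25% over the series) and both KO lists 7 (0.586%, against 1.35%). Averaged over the group that shared them, 22 of the 32 and 3 of the 7 reached a level of 0.3. With at least 20 reads in both wild-type libraries 20 of 30 did (66.7%), against 42.2% of such sites in all genes; this difference was not tested. The wild-type shared sites lay mostly near the ends of their genes: 20 of 32 (62.5%) were within 3000 bases of the gene end, close to the 60.1% of such sites in all genes. Sites in 1 list only were there in 30.8% of cases for the members and 41.2% for all genes. A further 3 of the 32, all in Efnb2, were within 500 bases of the gene start (9.38%, against 5.87% for all genes).

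Loss of sites was counted where both wild-type libraries had at least 20 reads. Of 30 such sites 24 were missing from both KO lists, which is 80.0% (Wilson 95% interval 62.7% to 90.5%), and the share over all genes was 83.1%. The interval of the members included the share over all genes. By gene and at any coverage, neither KO list held 8 of 11 shared sites of Efnb2, 5 of 5 of Epha4, 5 of 5 of Ephb3, 3 of 3 of Ephb2, 2 of 2 of Efnb3, 1 of 1 of Efnb1, 2 of 4 of Efna5 and 0 of 1 of Ephb4. In the opposite direction, 5 of 7 sites shared by the KO lists were in neither wild-type list (71.4%), beside 73.4% over all genes. Only 12 of the 30 sites had an expected coverage of at least 50 reads in both KO libraries, and 9 of these were lost (75.0%, against 80.4% over all genes at that setting). For each wild-type library, the coverage of the site was scaled by the ratio of the gene's coverage in the KO to that in the same wild-type library. The smaller of the values from the 2 wild-type libraries is the expected coverage. Where it could be checked, at 6 sites that a KO list did hold, the observed coverage was 0.261 to 5.54 times the expected one with a median of 0.810, so it is a rough guide.

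**Figure D3:**
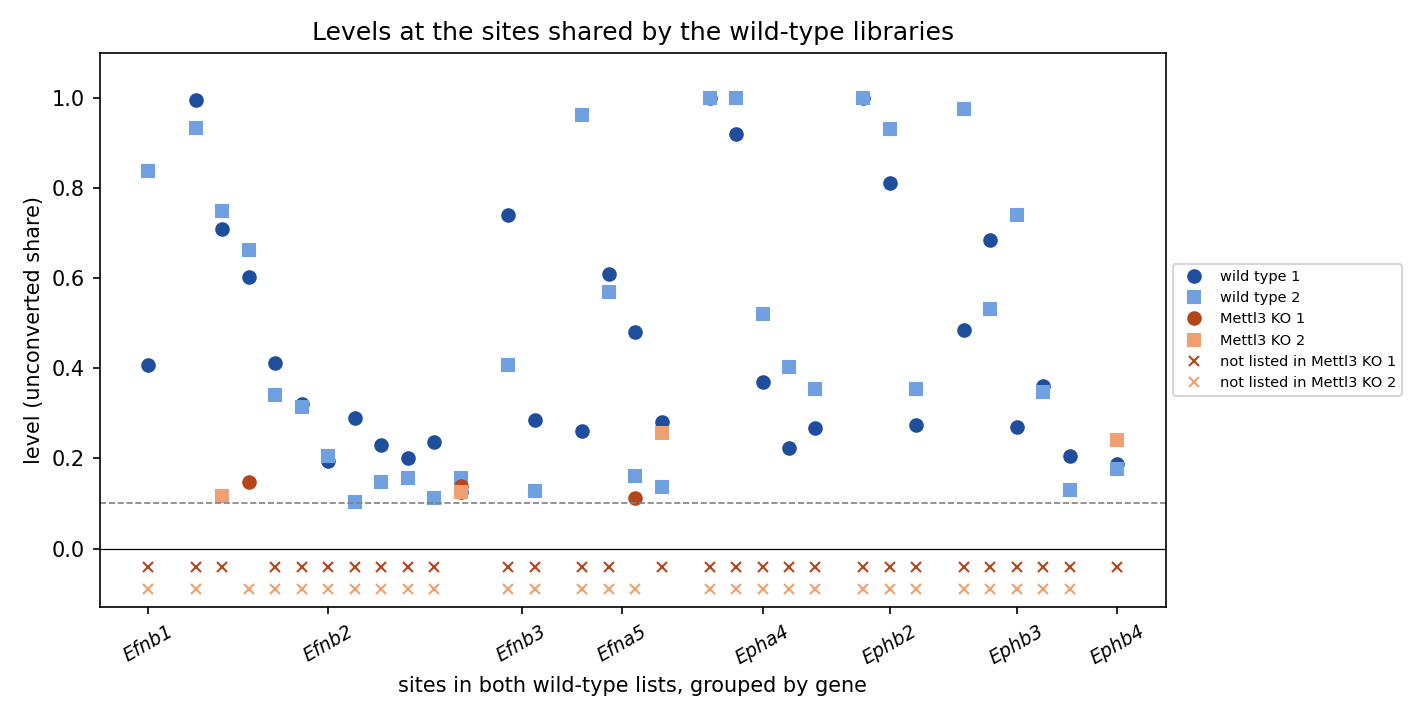
Level of each of the 32 sites present in both wild-type lists, grouped by gene and ordered by mean level, with symbols for each library that lists the site and crosses below 0 where a KO list does not hold it; the dashed line is the list minimum of 0.1. Wild-type levels reach 1 in Epha4 and Ephb2, while the KO levels that could be read are all below 0.26.

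Efnb2 (ENSMUSG00000001300, chromosome 8, 8667434 to 8711242, minus strand) carried the most heavily covered m6A sites among the members. A pair of sites 13 bases apart lay 2778 and 2791 bases before the gene end. At position 8670225 the level was 0.995 and 0.933 in the wild type, on 2348 and 2944 reads. At position 8670212 it was 0.710 (Wilson 95% interval 0.694 to 0.726) and 0.749 (0.734 to 0.763) on 2978 and 3393 reads. This pair alone supplied 71.3% and 75.9% of all unconverted reads at listed Efnb2 sites in the wild-type libraries. In the KO, position 8670225 was in neither list. Position 8670212 was in the list of KO replicate 2 with a level of 0.118 (0.0803 to 0.169) on 204 reads, and not in that of replicate 1.

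The KO depth at position 8670225 is not in the lists. The expected KO coverage there was 709 and 678 reads. At 8670212 the 204 observed reads were 0.261 times the expected number, so coverage at that site was lower in the KO than the gene value gives. In KO replicate 1 neither position is listed.

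The start of Efnb2 held another site of high level. Position 8711049, 193 bases from the gene start, had 0.603 and 0.662 in the wild type on 305 and 464 reads. In KO replicate 1 it had 0.149 (Wilson 95% interval 0.100 to 0.215) on 148 reads, below both wild-type values, and KO replicate 2 did not list it. Position 8710940, 302 bases from the start, had 0.322 and 0.314 and was in neither KO list, with 82.2 and 78.5 reads expected. A site 6 bases from 8710940 had 74 reads in KO replicate 1. Towards the gene end, position 8668106 had 0.411 and 0.341 on 450 and 478 reads. It was in neither KO list, with 115 and 110 reads expected. Listed KO sites 6 and 40 bases away had 53 and 54 reads, fewer than expected.

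A single member site was in all 4 lists with at least 20 reads in each, and it did not differ. Position 8667523 of Efnb2, 89 bases before the gene end, stood at 0.126 and 0.156 in the wild type on 578 and 738 reads, and at 0.139 and 0.125 in the KO on 144 and 104 reads. The 4 values overlapped. The log2 odds ratio was -0.10 (edgeR quasi-likelihood adjusted p 0.993) in the test of 1557 sites, of which 2.63% were lower. Sites of this test had to be listed in both KO libraries, so it leaves out every site that the KO lost. Another low site, 8668577, was listed only in the KO, at 0.126 and 0.260 on 103 and 50 reads.

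**Figure D4:**
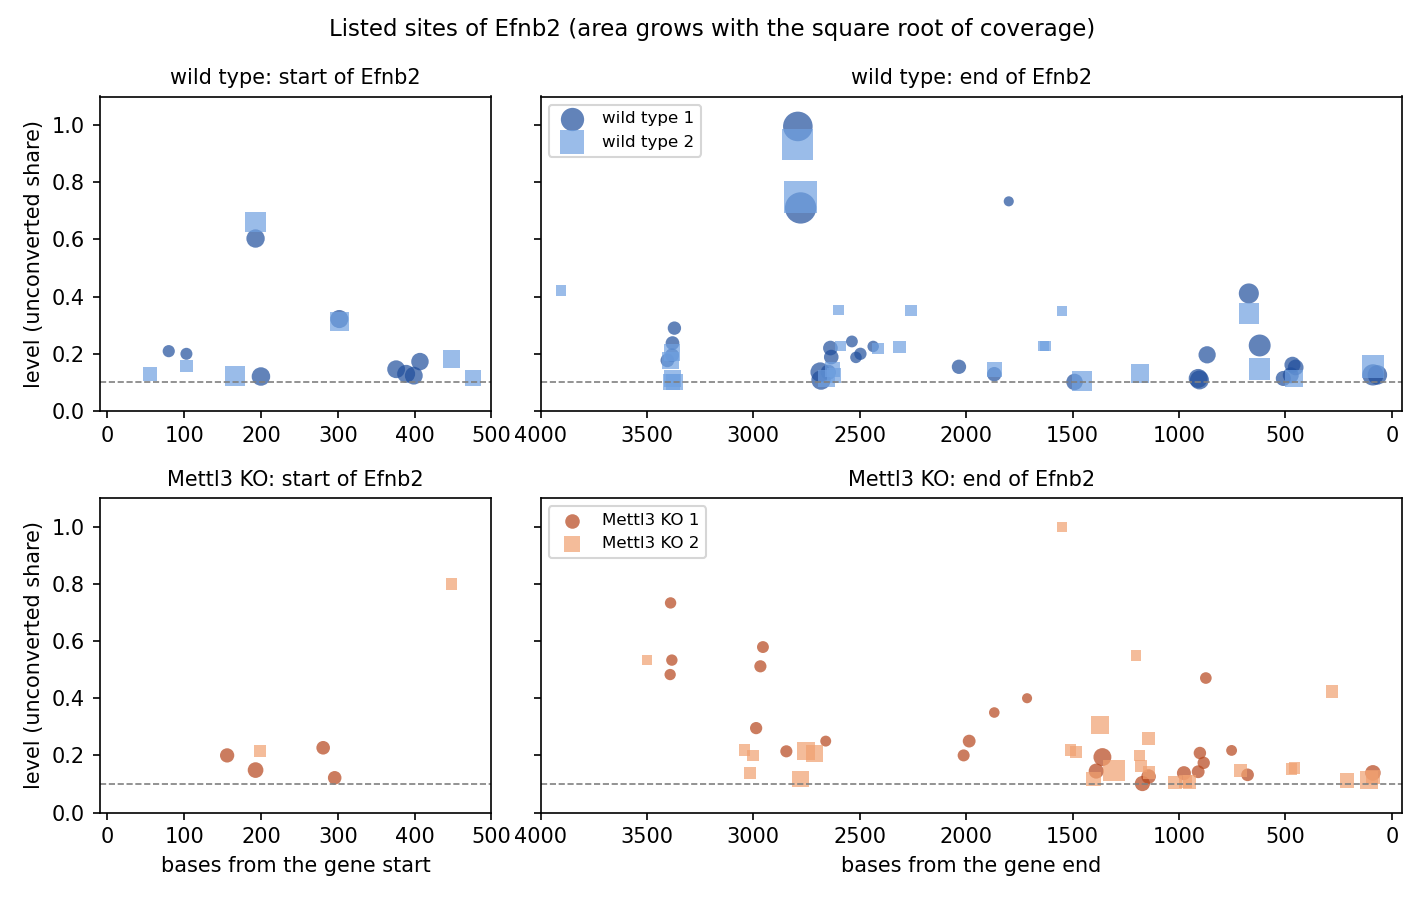
Level of listed Efnb2 sites against distance from the gene start (left) and from the gene end (right), wild type above and KO below, with symbol area growing with the square root of coverage and a dashed line at the list minimum of 0.1. The pair 2778 and 2791 bases from the end stands at 0.710 to 0.995 in the wild type on at least 2348 reads, while the most covered KO site of the gene has 626 reads.

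Among the receptors, Epha4 (ENSMUSG00000026235, chromosome 1, 77343822 to 77491725, minus strand) had 5 sites in both wild-type lists, and all lay between 1583 and 2197 bases before the gene end. None was in a KO list. Position 77346019 had levels of 0.370 and 0.520 on 108 and 100 reads. Position 77345789 had 0.223 and 0.404 on 166 and 389 reads, and position 77345405 had 0.268 and 0.355 on 127 and 186 reads. At the second the Wilson 95% intervals of the wild-type libraries (0.166 to 0.292 and 0.356 to 0.453) did not overlap, and at the other two sites they did. In the KO 45.7 and 42.1 reads were expected at the first, 94.3 and 86.9 at the second and 72.1 and 66.5 at the third. These were fewer than in the wild type because the coverage of the gene was lower. The nearest listed KO sites within 50 bases of the third had only 40 and 20 reads. Near the second such a site had 42 reads in KO replicate 2, and near the first 51 reads in KO replicate 1. At positions 77345453 and 77345842 nearly all wild-type reads were unconverted (0.921 and 1, then 1 and 1), on at most 76 reads.

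Ephb2 (ENSMUSG00000028664, chromosome 4, 136374850 to 136563299, minus strand) had 3 shared wild-type sites and 1 site that the KO kept. Position 136381240 had 0.273 and 0.355 on 139 and 107 reads and was in neither KO list, with 73.7 and 86.6 reads expected. Listed sites 3 and 6 bases away had 29 and 89 reads in KO replicates 1 and 2. Position 136381784 had a level of 1 in both wild-type libraries on 40 and 33 reads, and 136498539 had 0.811 and 0.931 on 53 and 29 reads. Position 136421219 ran the other way. It had 0.377 (Wilson 95% interval 0.259 to 0.512) and 0.440 (0.351 to 0.534) in the KO on 53 and 109 reads, and 0.316 (0.243 to 0.399) in wild-type replicate 2 on 133 reads. Wild-type replicate 1 did not list it. The KO values were thus not below the wild-type value that could be read.

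Ephb3 (ENSMUSG00000005958, chromosome 16, 21023505 to 21042055, plus strand) had 5 shared wild-type sites, all within 2009 bases of the gene end and none in a KO list. Position 21041847 had 0.486 and 0.976 on 70 and 83 reads, values whose intervals did not overlap (0.372 to 0.600 and 0.916 to 0.993). Position 21041867, 20 bases on, had 0.205 and 0.129 on 132 and 139 reads. The expected KO coverage was 88.1 and 72.7 reads at the first and 148 and 122 at the second. A site 30 bases before the first, 21041817, was listed only in the KO, at 0.404 and 0.471 on 52 and 17 reads, fewer than expected at either site. Every Ephb3 site carries the intron mark of the lists, also those with a gene value, so the mark was not read as intron here.

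The remaining members had shared sites on few reads. Efnb1 (ENSMUSG00000031217, chromosome X, 98179736 to 98192597, plus strand) had 1, at 98191405, with 0.407 and 0.839 on 27 and 31 reads and none in the KO, where about 50.7 and 49.2 reads were expected. Listed KO sites 4 and 10 bases away had 57 and 92 reads. Efnb1 also had 2 sites shared by the KO lists and absent from the wild-type lists. Of these, 98192482 had 0.565 and 0.538 on 23 and 26 reads. The 2 sites fall in the gene whose coverage was higher in the KO. Efnb3 (ENSMUSG00000003934, chromosome 11, 69444918 to 69451031, minus strand) had 69445571 at 0.741 and 0.407 on 27 and 54 reads, and Efna5 (ENSMUSG00000048915, chromosome 17, 62911179 to 63188312, minus strand) had 63079276 at 0.609 and 0.569 on 23 and 65 reads. Neither was in a KO list. The other shared Efna5 sites had wild-type levels that lay further apart. Position 62912152 had 0.261 and 0.962 and was in neither KO list. Position 62914182 had 0.481 and 0.160, and 0.112 in KO replicate 1 on 179 reads. Position 62913394 had 0.280 and 0.137, and 0.257 in KO replicate 2 on 35 reads. Ephb4 (ENSMUSG00000029710, chromosome 5, 137348371 to 137376931, plus strand) had 137355931 at 0.188 and 0.175 in the wild type and 0.240 in KO replicate 2, on 25 to 57 reads, and was the only member with no shared site at 0.3 or above.

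Levels within each gene were compared last, over all listed sites. Over the 8 members the median level was 0.294 in each wild-type library and 0.295 and 0.280 in the KO, and the groups overlapped. Over sites with a gene value it was 0.273 and 0.250 in the wild type against 0.217 and 0.239 in the KO, both KO values being lower. All genes together had 0.246 and 0.241 against 0.213 and 0.232 over all their sites. With at least 50 reads, sites at a level of 0.3 or above numbered 19 and 33 in the wild type against 14 and 8 in the KO, 21.6% and 27.5% against 16.5% and 14.0% of all sites at that coverage (exact two-sided permutation p = 0.33, the smallest that 2 against 2 libraries allow). Over the series the same share was 15.03% and 15.91% against 7.65% and 9.49%. In Epha4 such sites numbered 5 and 7 against 1 and 0, out of 14 and 21 against 3 and 1 sites with at least 50 reads, so the sites that could be counted were also fewer. In Ephb2 they numbered 3 and 7 of 5 and 9, against 1 and 1 of 4 and 2. In Efnb2 they numbered 7 and 5 of 40 and 34, against 0 and 2 of 13 and 17. Both KO counts were lower in these 3 genes, as in 28.9% of all genes tested (both were higher in 2.71%). In Efnb1, Efnb3, Efna5, Ephb3 and Ephb4 the counts overlapped or touched; the share in Ephb4 was 0% and 8.33% in the wild type against 50.0% and 25.0% in the KO, on at most 12 sites.

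The median level of a gene separated the groups in 5 of the 8 members. In 4 of them the KO was lower, as in 30.7% of all genes with at least 8 sites in each library. In Efnb1 the median level was 0.414 and 0.716 in the wild type against 0.207 and 0.318 in the KO. Its lowest listed levels also differed, 0.171 and 0.267 against 0.110 and 0.129, beside a coverage that was higher in the KO. With at least 5 unconverted reads needed, low levels can be listed only at higher coverage, and the part of this in the difference was not tested. In Ephb2 the median was 0.338 and 0.503 against 0.269 and 0.257, in Efnb3 0.240 and 0.218 against 0.159 and 0.167, and in Ephb3 0.316 and 0.348 against 0.286 and 0.3. In Ephb4 the order was the reverse, 0.210 and 0.241 against 0.293 and 0.301, as in 11.9% of those genes.

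The conversion rate that the lists give for each gene, the share of its adenosine read as G, was higher in the KO in several members. Its median over all genes was 96.1% and 96.2% in the wild type against 97.2% and 96.6% in the KO, and the median of the changes of single genes was 0.585 percentage points. Efnb2 went from 95.1% and 95.2% to 97.6% and 97.3%, a difference of 2.35 points that was larger than that of 91.2% of genes. Ephb3 went from 93.3% and 93.7% to 96.4% and 95.9% (2.64 points), and Ephb2 from 94.0% and 93.3% to 95.9% and 96.2% (2.42 points). In these 3 genes the groups did not overlap. Both KO values were above both wild-type values in 47.5% of all genes (below them in 4.13%) and in 5 of the 8 members, the other two being Efnb3 and Epha4. Epha4 went from 93.5% and 95.5% to 95.5% and 97.4% (1.94 points), where the higher wild-type and the lower KO value nearly met. The differences were 1.77 points in Efnb1, where the libraries overlapped, 0.620 in Efnb3, 0.214 in Ephb4 and 0.0405 in Efna5. No test was run on these rates, which are given as a description.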

How the data were processed

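GLORI libraries of 2 wild-type and 2 Mettl3 KO samples were read from 1 deposited site list each. Per the file headers, each site has counts of reads with A or G and of reads with A, their ratio as a fraction (the level), a coverage signal and conversion fraction of the gene, and a p-value, whose test is not stated and which was not used. The deposited fraction equalled the ratio of the counts to within 5e-06. The submitters' processing notes name mm10, but only 3.32% of 21473 gene starts lay within 1000 bases of GRCm38, so list coordinates are printed as given, without a build, and no sequence was read at them. The upstream sequences are RefSeq's promoter windows on GRCm38.p6. Aligner and caller are not given in the sources used here. Between 28 and 53 repeated entries per list were collapsed. On each chromosome the most frequent value shared by both strands was taken as chromosome-wide; gene values shared by genes or not single were left out of the coverage test. For tests over all genes a site was placed in the one protein-coding gene around it on its strand or, failing that, the one other gene.

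Tests used R 4.3.3 with edgeR 4.0.16 and limma 3.58.1 (log2 of coverage, centred on each library's median gene, no pseudocount), adjusted over all features by Benjamini-Hochberg, threshold 0.05; DESeq2 1.42.0 served as an alternative. Scripts were tested on simulated data. Wilson 95% intervals cover counting error only, since reads may be PCR copies. The members and lists were chosen with earlier results of these data known. All 9 members were to be described. Named sites were those in all 4 lists, the 3 highest per gene in both wild-type lists and the 2 highest in both KO lists with at least 50 reads in each; others named were chosen after their values were seen. Genes past the coverage threshold and the 2 largest changes per marker list were also named. Pax6, Foxd3, Efna4, Ephb6, Efna2 and Ephb1 were added after their values were seen.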

Additional observations from a re-analysis of the deposited data

How the results depend on the processing

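The calls rest on few libraries. In the coverage test the lower members numbered 2 and the higher 1; taking the most frequent value, chromosome-wide or not, gave 1 and 0, and leaving out 1 library gave 1 to 2 lower and 0 to 1 higher. Efnb2 was lower at an adjusted p under 0.05 under every alternative run (log2 change -1.91 to -1.71). Over all genes the lower and higher calls, 254 and 217, became 14 and 35 with the most frequent value and 408 and 364 above the lower quartile of coverage; without centring, which moved every change by -0.11 and their median to -0.13, 299 and 101. Leaving out 1 library gave 14 to 189 lower and 4 to 212 higher. For listed sites per gene the 1 higher member became 0 in DESeq2, with sites of at least 50 reads, with sites that carry a gene value, and without wild-type replicate 1, wild-type replicate 2 or KO replicate 2 (0 to 1); of all genes, 125 lower and 100 higher became 20 and 15 in DESeq2, 7 and 2 with levels of at least 0.3, 13 and 12 with at least 50 reads, 53 and 38 with gene-value sites, 70 and 56 with a replicate block, and 15 to 52 and 12 to 23 when 1 library was left out. In the site test 41 lower sites became 117 by Fisher's exact test on pooled reads (51 higher) and 25 without KO replicate 1; the likelihood ratio test called 11 higher. The loss share ranged from 75.0% to 85.0% with other minima and from 86.7% to 92.9% when 1 library was left out (without a wild-type library, sites of a single list enter). Changes near 0 turned sign. Efnb3 coverage came to -0.021 with the most frequent value, -0.11 uncentred, -0.0013 with the most frequent gene value, and -0.11 to 0.11 when 1 library was left out (below 0 without wild-type replicate 2 or KO replicate 1). Ephb4 coverage ranged from -0.44 to 0.071 (above 0 without KO replicate 1). Site numbers of Efnb3 came to -0.070 and of Efna5 to -0.0015 with gene-value sites; with 1 library left out they ranged from -0.43 to 0.79 for Efnb3 and from -0.64 to 0.082 for Ephb2. The Efnb2 site in all lists ranged from -0.26 to 0.089 (above 0 without wild-type replicate 2). The causes were not tested. Same-numbered libraries did not deviate together (correlation -0.03 over genes); with a replicate block 2 members stayed lower and 1 higher in coverage (Efnb2 adjusted p 6.53e-06), and the block changed no member's call. Sites under 15 reads cannot be seen in any list.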
